A study of Mus musculus with 3 samples.

Results

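Serotonin receptors are the cell surface proteins through which serotonin, released in the cortex by axons of the raphe nuclei, acts on its target cells. The genes described are Htr1a, Htr1b, Htr1d, Htr1f, Htr2a, Htr2c, Htr3a, Htr4, Htr5a and Htr7, 10 of the 15724 genes that could be named on the arrays. They were taken as every gene probe whose accession maps to one of these RefSeq symbols, which gave 12 probes: 1 each for 8 of the genes and 2 each for Htr2c and Htr4. The genes were picked with their ratios on these same arrays already known, above all those of Htr2a and Htr3a, so their ratios are given as a description with no test.

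The study compared the cortex of mice carrying 1 copy of Gtf2i without exon 2, Gtf2i(+/Δex2), with the cortex of wild type mice, WT (+/+). Gtf2i encodes TFII-I, a transcription factor whose gene lies in the interval deleted in Williams-Beuren syndrome. Both genotypes were adult, 16 weeks old, on a mixed background of 98.4% C57BL/6J and 1.6% 129Sv/CD1, and carried no other labelled allele or treatment. Cortex was dissected fresh and frozen, RNA was pooled from 3 to 5 mice of a genotype, and 500 ng of it, with an RNA integrity number of at least 7, was amplified and labelled. On each of 3 Agilent arrays of 44290 spots a mutant pool was hybridised together with a wild type pool in the other dye, so every array gives its own ratio. The labels do not say whether the pools of the 3 arrays were made from separate mice, so the spread and the p-values measure only the difference between arrays. Pooling also hides the difference between single mice.

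The direction mutant over wild type is likely but not settled. The titles name the mutant first, the deposited readme defines fold as test against control and says that columns were turned for the dye swap, and a set of 492 control spots had median log2 ratios of 4.51, -4.54 and 4.58 on replicates 1 to 3. That sign turns on replicate 2, the array on which the labels put the mutant in Cy5, as it would where the columns hold genotypes and not dyes. If the deposited columns held the dyes of their names on replicates 1 and 3, every sign below would turn. The probes of Gtf2i itself, read in this direction, had log2 ratios of -0.46, -0.44 and -0.52 (A_52_P442585) and -0.34, -0.34 and -0.26 (A_51_P499905). No source used here places these probes relative to exon 2, and they were not used to set the direction.

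Serotonin receptors fall into classes by the way they signal. Htr1 and Htr5 receptors couple to Gi/o proteins, which lower cyclic AMP and open GIRK potassium channels. Htr2 receptors couple to Gq and phospholipase C, Htr4, Htr6 and Htr7 receptors couple to Gs and raise cyclic AMP, and Htr3 receptors are not G protein coupled at all but are cation channels of the Cys-loop superfamily. In the cortex Htr2a is best known from pyramidal neurons, and Htr3a marks a class of inhibitory interneurons, many of them also making Vip, reelin or neuropeptide Y.

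Promoter sequence was taken from RefSeq (build GRCm38.p6, 250 bases before to 50 after the annotated start). It was matched for 8 of the 10 genes, with 9 entries because Htr1d has 2 starts. No promoter was read for Htr3a, the receptor with the lowest ratio, or for Htr4. The promoters of Htr2a, Htr2c and Htr5a are shown because they pair the Htr2 gene with the low ratio, the other Htr2 gene and a Gi/o coupled receptor whose ratio was near 0. They are printed 5′ to 3′ in the direction of the gene, and capitals mark matches on either strand to the E-box CANNTG or to GGGCGG, the core of GC boxes. Background knowledge of TFII-I, which binds initiator and E-box elements, is the reason these letters were searched.

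Htr2a, chr14:74640624-74640923, + strand: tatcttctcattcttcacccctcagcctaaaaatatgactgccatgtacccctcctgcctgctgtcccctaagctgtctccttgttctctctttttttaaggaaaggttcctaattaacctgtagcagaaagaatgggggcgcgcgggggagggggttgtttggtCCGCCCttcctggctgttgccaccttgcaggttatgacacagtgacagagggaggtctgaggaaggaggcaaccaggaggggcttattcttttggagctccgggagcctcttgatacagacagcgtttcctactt
Htr2c, chrX:146962263-146962562, + strand: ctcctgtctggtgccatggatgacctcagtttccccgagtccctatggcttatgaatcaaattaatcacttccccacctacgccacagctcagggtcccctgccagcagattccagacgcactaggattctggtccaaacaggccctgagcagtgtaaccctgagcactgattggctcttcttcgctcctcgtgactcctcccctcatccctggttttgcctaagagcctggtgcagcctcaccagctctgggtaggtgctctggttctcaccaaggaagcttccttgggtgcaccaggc
Htr5a, chr5:27841697-27841996, + strand: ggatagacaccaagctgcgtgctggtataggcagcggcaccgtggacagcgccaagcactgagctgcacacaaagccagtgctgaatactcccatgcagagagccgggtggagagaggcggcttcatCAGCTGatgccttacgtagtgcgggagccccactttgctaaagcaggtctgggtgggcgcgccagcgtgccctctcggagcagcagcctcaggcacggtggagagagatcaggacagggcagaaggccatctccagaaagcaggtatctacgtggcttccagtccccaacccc

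The Htr2a promoter held no CANNTG match and 1 GGGCGG match, at base 166 of the 300. The Htr2c promoter held neither. The Htr5a promoter held 1 CANNTG match, at base 128, and no GGGCGG match. Of all 32851 promoter entries of this length, 72.3% held CANNTG, 35.7% held GGGCGG and 7.15% held CACGTG, the E-box of the classic form, which was in none of the 9 receptor entries. Htr1a and Htr1f had 1 GGGCGG match each and no CANNTG match, Htr1b and Htr7 had neither, and the Htr1d entries had 2 and 1 CANNTG matches beside 1 and 4 GGGCGG matches. No matches overlapped. Among the promoters read, lack of CANNTG was thus shared by Htr2a and receptors with ratios near 0, Htr1a, Htr1f and Htr2c, which describes the letters of a short window and no binding.

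The receptor probes differed widely in how far they stood above background. A probe was tested if the deposited flag called it reliable (signal at least 2 times background, per the readme) on 2 or more of the 3 arrays, which left 8 of the 12 receptor probes, for 7 of the 10 genes. Of these, 7 probes were reliable on every array. Median intensity of negative control spots was 72.3 to 81.4 and their 95th percentile 83.1 to 99.8. The single probes of Htr1b and Htr7 and both probes of Htr4 were reliable on no array, with intensities of 82.6 to 123.1 in both columns, so no ratio is read from them.

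**Figure D1:**
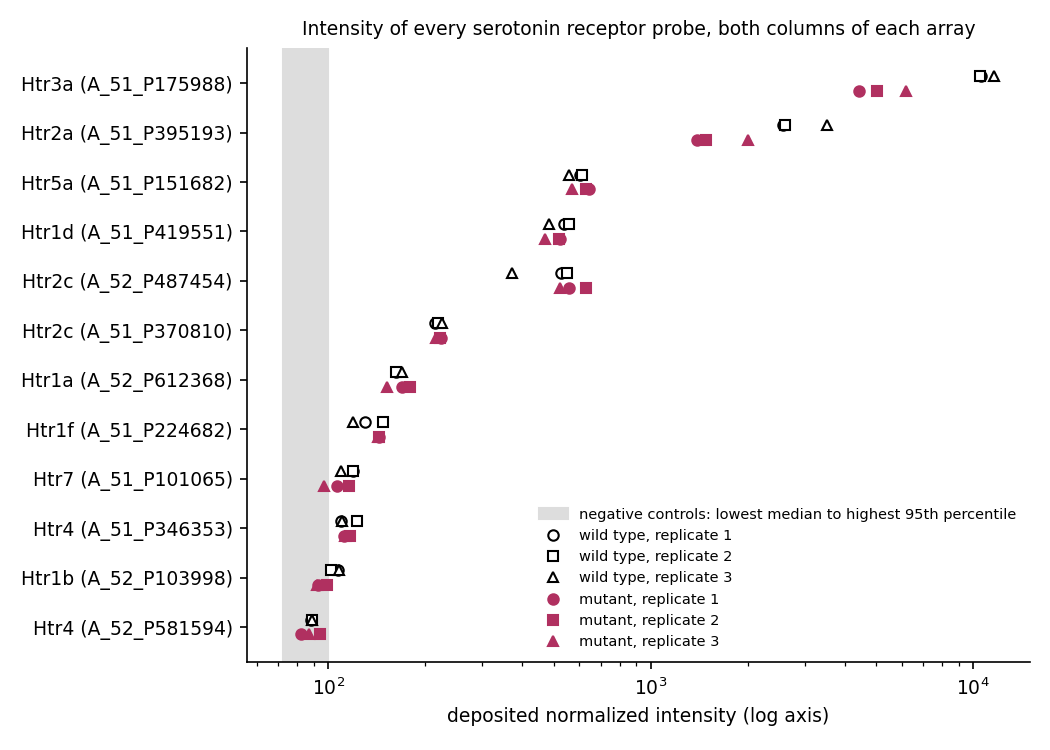
Deposited normalized intensity (log axis) of each of the 12 serotonin receptor probes on the 3 arrays, with wild type as open and mutant as filled symbols; the grey band runs from the lowest median to the highest 95th percentile of negative control spots, 72.3 to 99.8. Among the 8 tested probes the columns separate for Htr3a and Htr2a only; the untested probes of Htr1b, Htr4 and Htr7 lie at or just above the band, where the columns of Htr1b also do not overlap.

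Htr3a encodes the subunit that every working serotonin-gated channel needs. Its probe A_51_P175988 read 10536.4, 10478.6 and 11608.4 in the wild type column of replicates 1 to 3. In the mutant column it read 4434.5, 5014.4 and 6198.0. The highest mutant value lies far below the lowest wild type value, and the mutant column held 42.1%, 47.9% and 53.4% of its wild type partner. The log2 ratios were -1.25, -1.06 and -0.91, with a mean of -1.07 ± 0.17 (SD, n = 3 arrays). Replicate 1 was the lowest and replicate 3 the nearest to 0, and without replicate 1 the mean was -0.98. In whole cortex, fewer cells that make a receptor and less receptor RNA per cell cannot be told apart, here or for any gene below.

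Htr2a encodes the Gq coupled receptor on which psychedelic drugs and many antipsychotics act. Its probe A_51_P395193 read 2573.1, 2599.5 and 3509.0 in the wild type column and 1393.7, 1481.2 and 1998.8 in the mutant column. Replicate 3 was brighter than the others in both columns, and the columns did not overlap. The mutant column held 54.2% of its wild type partner on replicate 1 and 57% on each of the others. The log2 ratios were -0.88, -0.81 and -0.81, with a mean of -0.84 ± 0.04. The arrays spread far less around this mean than around that of Htr3a. The ratio of Htr2a stood above that of Htr3a by 0.36, 0.25 and 0.09 on the 3 arrays, a mean of 0.24 ± 0.14, so the distance between the pair varied with the array although its sign did not.

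Only 1 probe was matched for each of these genes, so there is no second oligonucleotide to set beside either. Of the 27530 probes tested, 34 had a mean ratio at or below that of Htr3a (0.124%) and 123 at or below that of Htr2a (0.447%). By limma, with adjusted p below 0.05, 33.9% of the tested probes passed, 18.9% as lower and 15.0% as higher, with a median absolute log2 ratio of 0.26 among them. Of the 8 receptor probes the 2 of Htr2a and Htr3a passed, both as lower. They were also the only 2 of these 8 whose columns did not overlap across arrays, which held for 32.2% of all tested probes and, with mutant lower, for 19.3%. Since these ratios served to choose the genes, nothing is read from those counts. The median ratio was 0.01 over the receptor probes and 0.00 over all tested probes.

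**Figure D2:**
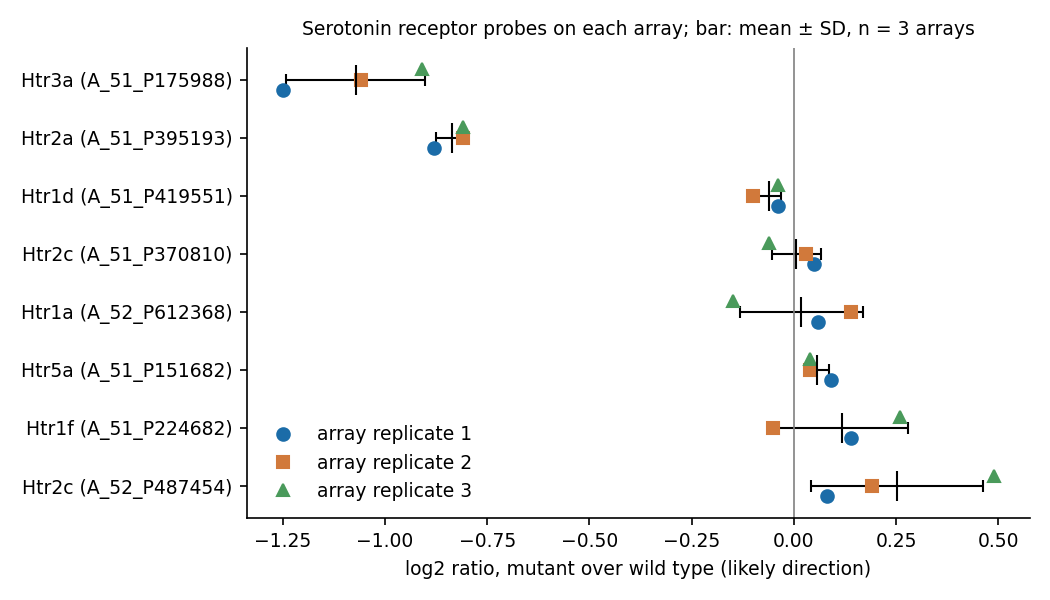
log2 ratio of mutant over wild type (likely direction) for the 8 tested serotonin receptor probes, 1 symbol per array, with bars for the mean ± SD of 3 arrays. Htr3a and Htr2a lie at -1.07 and -0.84, and the other probes have means of -0.06 to 0.25.

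Htr2c, the other Gq coupled receptor on the arrays with tested probes among the 10 genes, is made by neurons and very strongly by the choroid plexus, and its RNA is edited by ADAR enzymes. Its probes gave different readings. A_51_P370810 read 214.9, 218.3 and 224.9 in the wild type column and 223.2, 222.2 and 215.2 in the mutant column, with log2 ratios of 0.05, 0.03 and -0.06 (mean 0.01 ± 0.06). A_52_P487454 read 526.6, 550.2 and 372.1 in the wild type column and 555.8, 627.6 and 522.3 in the mutant column, with ratios of 0.08, 0.19 and 0.49 (mean 0.25 ± 0.21). The high ratio of replicate 3 came with the lowest wild type reading of that probe, while its mutant readings on replicates 1 and 3 were close. The probes differed by 0.02, 0.16 and 0.55 on the 3 arrays (mean 0.25 ± 0.27), so they disagreed mainly on replicate 3, and without that array A_52_P487454 had a mean of 0.13. No source used here tells which stretch of the transcript either probe covers.

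The Gi/o coupled receptors had ratios near 0. Htr1a, the receptor that damps raphe neurons and also acts on cortical pyramidal neurons, read 161.9, 162.1 and 169.0 in the wild type column and 169.2, 178.7 and 152.3 in the mutant column. Its ratios of 0.06, 0.14 and -0.15 had no common sign (mean 0.02 ± 0.15). Htr1d, a receptor of nerve endings and a target of triptans, read 539.0, 556.5 and 484.4 in the wild type column and 522.8, 520.0 and 470.6 in the mutant column. Its ratios of -0.04, -0.10 and -0.04 were all slightly below 0 (mean -0.06 ± 0.03), but the columns overlapped across arrays.

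Htr5a, a less studied Gi/o coupled receptor of the brain, read 603.8, 611.4 and 557.7 in the wild type column and 644.1, 629.3 and 571.8 in the mutant column. Its ratios of 0.09, 0.04 and 0.04 were all slightly above 0 (mean 0.06 ± 0.03), again with overlapping columns. Htr1f, the receptor targeted by lasmiditan, read 130.2, 148.2 and 119.0 in the wild type column and 143.2, 143.4 and 142.8 in the mutant column. It was reliable on only 2 of the 3 arrays and its ratios of 0.14, -0.05 and 0.26 had no common sign (mean 0.12 ± 0.16). Htr1b, the partner of Htr1d at nerve endings, read 102.1 to 107.7 in the wild type column and 92.0 to 99.3 in the mutant column. It was reliable on no array.

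The Gs coupled receptors could not be read. Htr4, known for its role in memory and gut movement, gave 109.2 to 123.1 and 112.1 to 117.2 with one probe and 88.3 to 89.3 and 82.6 to 94.3 with the other, wild type first. Htr7, known from thalamus and hippocampus, gave 109.5 to 119.4 and 96.7 to 115.6. None of these probes was reliable on any array, so their readings set no limit on a change in either gene.

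Placed in order of mean ratio, the tested probes ran Htr3a, Htr2a, Htr1d, Htr2c (A_51_P370810), Htr1a, Htr5a, Htr1f and Htr2c (A_52_P487454). In that order Htr3a, Htr2a and Htr1d kept apart from each other over the arrays. The highest array of Htr3a, -0.91, lay just below the lowest of Htr2a, -0.88, and the step from Htr2a to Htr1d was 0.77 ± 0.06. From Htr1d upward each probe overlapped its neighbour. The 6 tested probes other than those of Htr2a and Htr3a, for 5 genes, had array ratios from -0.15 to 0.49.

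**Figure D3:**
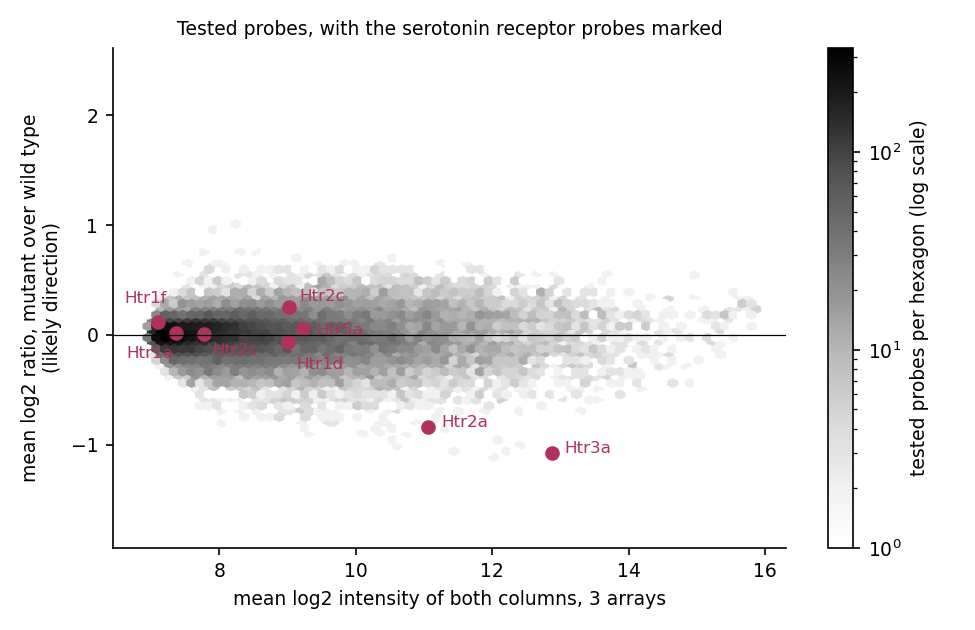
Mean log2 ratio of mutant over wild type (likely direction) against mean log2 intensity of both columns for all 27530 tested probes, shaded by their number on a log scale, with the 8 tested serotonin receptor probes marked. Htr2a and Htr3a lie below most probes of like intensity, at -0.84 and -1.07, and the other receptors lie within the dense part.

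Receptors outside the 10 genes filled in the family. Htr5b, the sister gene of Htr5a, which is intact in mice, fell slightly, with ratios of -0.11, -0.11 and -0.17 (mean -0.13 ± 0.03, adjusted p = 0.0478 by limma); it passed in 4 of 12 alternative settings, with adjusted p up to 0.242. Htr6, Gs coupled and largely neuronal, had a mean of -0.03 ± 0.01 (adjusted p = 0.546 by limma). Htr2b, best known from heart valves, had a mean of 0.07 ± 0.08 with the probe that was tested (adjusted p = 0.296 by limma). Htr3b, the partner subunit of Htr3a and the next protein-coding gene beside it in the genome, read 80.3 to 93.0 in both columns and was not above background, so the pair of channel subunits cannot be compared.

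Named probes whose 3 ratios lay closest to those of each receptor, by Euclidean distance among 16542 probes with a gene name, were found. For Htr2a these were Akirin1 at a distance of 0.047, Creb3l1 at 0.079 and Camk4 at 0.080. Camk4, a calcium and calmodulin dependent kinase, had ratios of -0.84, -0.76 and -0.85. For Htr3a they were Klrb1c at 0.034, Spatc1 at 0.044 and Nipal4 at 0.051. Klrb1c, known from natural killer cells, had ratios of -1.23, -1.07 and -0.88. With 3 arrays such nearness describes the numbers only.

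Outside the 10 genes, 87 of 117 genes of 7 lists were tested: the other serotonin receptors, serotonin handling, the G protein arms, receptor partners and other Cys-loop channel subunits. A gene counted by its probe with the smallest p, a rule under which 40.7% of the 12721 tested genes passed, 23.6% as lower and 17.1% as higher. Of the 87, 29 fell (33.3%), 14 rose (16.1%) and 44 did not pass, with a median ratio of -0.09 against -0.02 over all named genes. Without replicate 3, the array on which thalamic markers stood apart, 34 fell and 15 rose, where 24.3% and 18.0% of all genes did. Without replicate 1, 14 fell and 5 rose, where 7.01% and 4.02% of all genes did.

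Of the 13 tested genes of serotonin synthesis, storage, uptake and breakdown, 1 fell and 2 rose (median 0.02), all of them breakdown enzymes. Maob, an outer mitochondrial membrane oxidase of monoamines, rose with ratios of 0.60, 0.42 and 0.47 (mean 0.50 ± 0.09, adjusted p = 0.00333 by limma). Its sister Maoa, the oxidase that prefers serotonin, rose by a mean of 0.24 ± 0.06 (adjusted p = 0.0127 by limma), a call lost in 1 of 12 alternatives, where adjusted p was 0.116. Aldh2, an aldehyde dehydrogenase of the next step, fell by a mean of -0.34 ± 0.17 (adjusted p = 0.0198 by limma). Qdpr and Spr, enzymes of the tetrahydrobiopterin cofactor, had means of -0.16 and -0.11 and did not pass. Tph2, the enzyme that commits tryptophan to serotonin in the brain, read 80.1 to 107.8 and the transporter Slc6a4 read 99.4 to 121.4. Neither was reliable on any array, in a tissue that holds serotonin axons but not the cell bodies.

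The Gi/o arm that serves the Htr1 and Htr5 receptors had 6 genes lower and 1 higher of 12 tested (median -0.15). The alpha subunit genes Gnao1 (-0.51 ± 0.10), Gnaz (-0.45 ± 0.05 and -0.34 ± 0.13 by its probes) and Gnai2 (-0.55 ± 0.21) fell. So did Rgs7 (-0.28 ± 0.03), which speeds the shut-off of Gi/o, and Rgs4 by 1 probe (-0.56 ± 0.21), while the other Rgs4 probe had -0.06 and did not pass. Of the receptors of this arm, Htr1a, Htr1d, Htr1f and Htr5a had means of -0.06 to 0.12 and Htr5b had -0.13. The 5 genes named were those with the smallest p of the list, so their distance from the receptors is not read. Genes of this arm that did not pass had means of -0.12 to 0.13.

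The Gq arm of the Htr2 receptors had 5 genes lower and 2 higher of 13 tested (median -0.16). Gna11, a Gq family alpha subunit, fell with ratios of -0.52, -0.53 and -0.43 (mean -0.49 ± 0.05, adjusted p = 0.00271 by limma). The protein kinase C genes Prkca (-0.26 ± 0.06) and Prkce (-0.41 ± 0.21) and the diacylglycerol kinase Dgkz (-0.28 ± 0.07) fell too. Itpr1, the calcium release channel opened by inositol trisphosphate, rose by 1 probe (0.43 ± 0.09) and had -0.11 without passing by the other. Htr2a was chosen with its ratio known, so its distance from these genes is not read.

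The Gs arm of Htr4, Htr6 and Htr7 had 10 genes lower and 3 higher of 17 tested (median -0.21). Subunits of protein kinase A made up much of it: Prkar1b (-0.52 ± 0.03 and -0.19 ± 0.09 by its probes), Prkar1a (-0.42 ± 0.07) and Prkaca (-0.33 ± 0.03) fell, and Prkacb fell by 1 probe (-0.52 ± 0.06) with -0.11 by the other, which did not pass. The adenylyl cyclase gene Adcy9 fell as well (-0.46 ± 0.11). Of the receptors that feed this arm only Htr6 could be read.

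Genes of receptor partners, trafficking, RNA editing and desensitization were mixed, with 3 lower and 5 higher of 22 tested (median -0.05). Adarb1, one of the enzymes that edit Htr2c RNA, fell (-0.24 ± 0.08). Cc2d1b, of the family that represses the Htr1a gene, rose (0.37 ± 0.07). The probes of Grk2, a receptor kinase, passed in opposite directions (0.40 ± 0.04 and -0.20 ± 0.06), so that gene has no single direction.

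Other subunits of the Cys-loop channels, the superfamily of Htr3a, were also mixed, with 3 lower and 1 higher of 7 tested (median 0.08). Chrnb2, a nicotinic acetylcholine receptor subunit, fell with ratios of -0.87, -0.77 and -0.49 (mean -0.71 ± 0.20, adjusted p = 0.00406 by limma). Its usual partner Chrna4 fell by 1 probe (-0.22 ± 0.13) and had -0.11 ± 0.21 by the other, which did not pass. Gabra2, a GABA receptor subunit, fell (-0.40 ± 0.06). Chrna7 had 0.21, 0.28 and 1.70 with one probe and a mean of -0.10 ± 0.09 with the other, and neither passed.

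**Figure D4:**
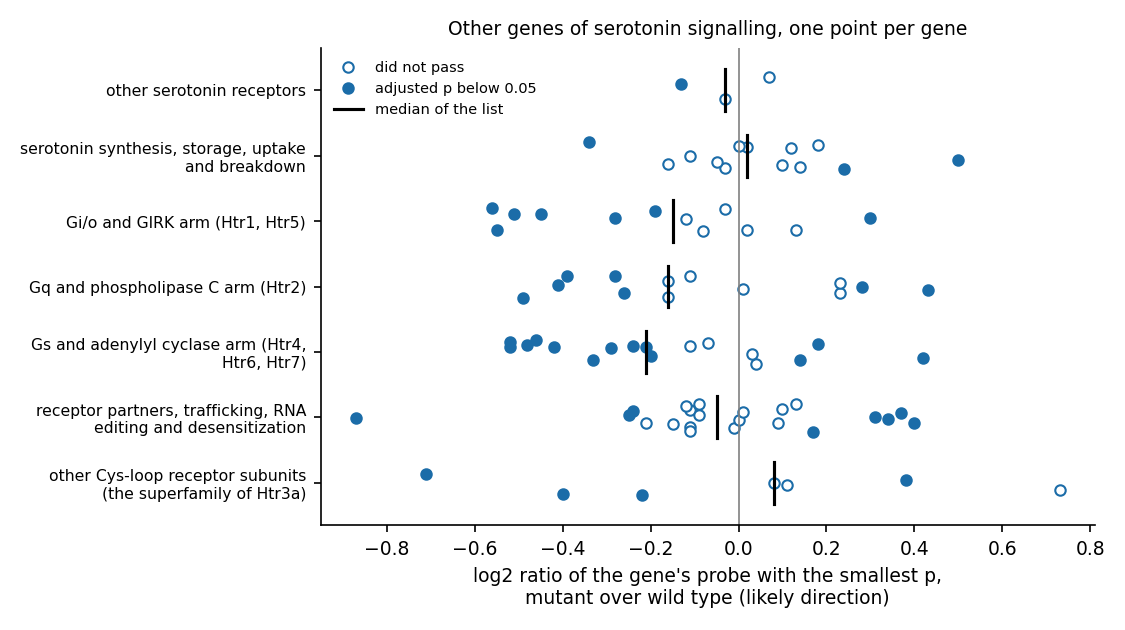
log2 ratio of mutant over wild type (likely direction) for the 87 tested genes of 7 lists (other serotonin receptors, serotonin handling, signalling arms, partners and Cys-loop subunits), 1 point per gene by its probe with the smallest p, filled where adjusted p was below 0.05, with a line at the list's median. The medians run from -0.21 for the Gs arm to 0.08 for Cys-loop subunits, and most filled points of the G protein arms lie below 0.

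Markers of many cell types differed between the columns, both of the cells best known for these receptors and of others. In this and the following lists a gene again counted by its probe with the smallest p. By that rule 23.6% of all tested genes fell and 17.1% rose, or 24.3% and 18.0% without replicate 3. Of 17 tested markers of the Htr3a class of interneurons, 7 fell and 1 rose (median -0.15). Id2 fell by both probes (-0.66 ± 0.04 and -0.30 ± 0.09). Cxcl14 (-0.40 ± 0.06), Npy (-0.24 ± 0.03) and Tac2 (-0.24 ± 0.05) fell as well, and Nr2f2 was higher by 1 of its probes (0.39 ± 0.06). Their summed intensity was 30157 to 34265 in the mutant column and 37631 to 45137 in the wild type column. Their mean ratio was -0.14, -0.11 and -0.13 on replicates 1 to 3, against -1.25, -1.06 and -0.91 for Htr3a. Of these markers Sncg was reliable on only 1 array and was not tested. Of 6 tested markers of other interneurons, 2 fell and none rose. Sst had -0.57 ± 0.11, and Gad1 had -0.37 ± 0.22 by 1 probe and -0.20 by the other, which did not pass. Pvalb (0.35 ± 0.28), Slc32a1 (0.21 ± 0.23) and Gad2 (-0.30 ± 0.45) did not pass. The mean ratio of that list was -0.30, -0.18 and 0.09 on replicates 1 to 3, and without replicate 3, 3 fell and 1 rose. The part of either group of interneurons in the Htr3a ratio was not tested.

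Of 16 tested markers of cortical pyramidal neurons, the cells best known for Htr2a, 9 fell and 2 rose (median -0.20). Cux2 (-0.45 ± 0.04), Camk2a (-0.44 ± 0.07), Slc17a7 (-0.41 ± 0.10) and Etv1 (-0.32 ± 0.02) fell, and Tle4 rose (0.34 ± 0.12). Their summed intensity was 37985 to 52984 in the mutant column and 43790 to 62458 in the wild type column, and their mean ratio was -0.16, -0.17 and -0.15, against -0.88, -0.81 and -0.81 for Htr2a. The part of these cells in the Htr2a ratio was not tested. Camk2a, a defining gene of forebrain excitatory neurons, read 17201.2 or more on every array by that probe, while its other probe, which also fell (-0.19 ± 0.05), read 148.0 to 187.8.

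Lower marker genes were not limited to neurons, where by the same rule 23.6% of all tested genes fell and 17.1% rose. Of 8 tested microglial markers 7 fell and 1 rose (median -0.21), or 5 and 0 without replicate 3. Tyrobp had -0.26 ± 0.03, and Cx3cr1 had -0.30 ± 0.10 by 1 probe and -0.14 by the other, which did not pass. All 3 tested blood markers fell by their probe with the smallest p (median -0.46), with 4 of 6 tested probes lower. The blood list's mean ratio was -0.49, -0.53 and -0.07 on replicates 1 to 3. Of 8 astrocyte markers 4 fell and 2 rose (median -0.29). Aldoc (-0.56 ± 0.02) and Aldh1l1 (-0.45 ± 0.04) fell. Sox9 rose by 1 probe (0.57 ± 0.15) and had -0.29 by its other tested probe, which did not pass. Of 9 oligodendrocyte markers 3 fell and 2 rose (median -0.19), and of 11 striatal markers 2 fell and none rose (median -0.10), or 8 and 0 without replicate 3. Of 8 vessel markers 2 fell and 2 rose (median -0.09), and of 9 hippocampal markers 2 fell and 2 rose (median 0.06). No difference between these lists and the neuronal lists was tested.

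Markers of tissues that border the cortex were set beside the Htr2c probe A_52_P487454. Of 11 tested choroid plexus markers, 3 rose and none fell (median 0.11). Clic6 had 0.53 ± 0.03 and 0.18 ± 0.06 by its probes, Sostdc1 had 0.58 ± 0.21 and Ttr had 0.28 ± 0.06. Their summed intensity was 12536 to 14012 in the mutant column and 10995 to 11801 in the wild type column, and F5 was reliable on no array. The list's mean ratio was 0.13, 0.16 and 0.18 on replicates 1 to 3. On replicate 3 the tested markers that did not pass had ratios from -0.07 (Prlr and Cldn2) to 0.49 (Kcne2). Of 8 tested thalamic markers 1 rose, Tcf7l2 by 1 of its tested probes (0.46, 0.60 and 1.76), and the list's mean ratio was -0.03, -0.05 and 0.65, so replicate 3 stood apart. The thalamic sum was 11812 to 14431 in the mutant column and 6520 to 13180 in the wild type column. The part of either tissue in the Htr2c ratio was not tested. Without replicate 3 the mean of A_52_P487454 was 0.13, as given above. The other Htr2c probe, A_51_P370810, had a mean of 0.01 over the 3 arrays.

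For raphe serotonin neurons, a source of Htr1a RNA in tissue that includes the brainstem, 10 markers were on the arrays. Of these, 6 were reliable on at least 2 arrays and tested. Fev, a defining transcription factor of these neurons, read 1136.7 to 1302.8 over both columns, with a mean ratio of 0.02 ± 0.02. Whether this probe reads RNA of raphe neurons in dissected cortex was not tested. Slc18a2, the vesicle transporter, had 0.14 ± 0.13 and 0.09 ± 0.44 by its probes. None of the 6 passed. Tph2, Slc6a4 and En1 were reliable on no array and Sncg on 1, so they were not tested. The list's mean ratio was 0.07, 0.01 and 0.21 on the 3 arrays, with a summed intensity of 3223 to 3608 in the mutant column and 2967 to 3555 in the wild type column.

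Single arrays decided part of the calls outside the receptors. Of the 89 probes that passed among the signalling, marker and other named genes, 46 did not pass without replicate 1, at adjusted p from 0.0519 to 0.245 by limma. They include the printed probes of Htr5b, Maoa, Aldh2, Rgs7, Dgkz, Prkca, Adarb1, Chrna4, Npy, Tac2, Gad1, Ttr and Tcf7l2, the probes with the smaller change of Prkar1b and Grk2, and Gtf2i probe A_51_P499905. Without replicate 2, 15 did not pass (0.056 to 0.127), among them Htr5b, Aldh2, Gad1, Tcf7l2 and the probes with the smaller change of Prkar1b and Grk2. Without replicate 3, 4 did not pass (0.0505 to 0.136), Htr5b, Chrna4, Adrb3 and the Clic6 probe with the smaller change. No sign turned in these settings.

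**Figure D5:**
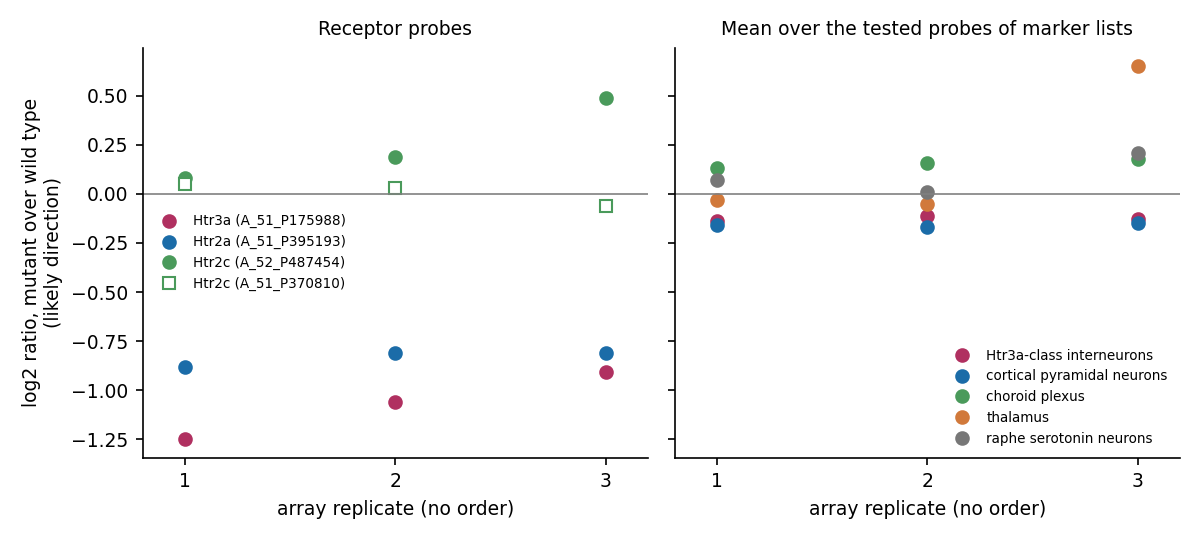
log2 ratio of mutant over wild type (likely direction) on each array for the probes of Htr3a, Htr2a and Htr2c (left) and for the mean over the tested probes of 5 marker lists (right). Htr3a and Htr2a are low on every array, and the Htr2c probe A_52_P487454 (0.49) and the thalamic markers (0.65) are highest on replicate 3.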

How the data were processed

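RNA of mouse cortex was measured on 3 Agilent arrays of 2 dyes. The authors quantified images with GenePix, subtracted background and normalized the intensities by a method not given in the sources used here, then turned the columns for the dye swap, per the deposited readme. The deposited value table holds the authors' signed fold, a score equal to the fold column of the array files at all spots. The linear intensities, written with decimal commas, were used: log2 of the mutant over the wild type column per spot, averaged over spots of a probe. Spots flagged as reliable numbered 67.8%, 64.4% and 69.7% of gene spots. The number of arrays limits precision.

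Accessions were matched to RefSeq symbols, which named 21445 of 41174 gene probes (52.1%); Htr2a and Htr3a probes under other kinds of accession stay unnamed. Probes reliable on at least 2 arrays (27530) were tested against 0 with limma 3.58.1 (lmFit, eBayes) in R 4.3.3, with Benjamini-Hochberg adjustment over all of them and a threshold of 0.05. The procedure was tested on simulated data. Receptors, lists and the rule for named genes (per list the 5 genes with the smallest p; all markers of raphe and choroid plexus; for Htr2a and Htr3a the 3 nearest probes) were chosen with earlier results of these data known. Ratios correlated across probes at 0.822 (replicates 1 and 2), 0.783 (1 and 3) and 0.625 (2 and 3). Alternatives were other filters, normalizations, background, weights, left-out arrays and call rules. Other tools were Python 3.11.15 and matplotlib 3.10.9. A few listed genes that enter the counts are not reported here by name.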

Additional observations from a re-analysis of the deposited data

How the results depend on the processing

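Over 12 alternatives Htr3a ranged from -1.21 to -0.98, Htr2a from -0.88 to -0.81, Htr1d from -0.08 to -0.04, Htr5a from 0.04 to 0.09, Htr1a from -0.04 to 0.10, and Htr2c from -0.02 to 0.04 (A_51_P370810) and 0.11 to 0.34 (A_52_P487454); Htr1f, over 11, ranged from 0.04 to 0.25. The receptor probes that passed numbered 2 in each, except 4 with array weights, which gave replicate 1 a weight of 5.84 against 0.373 and 0.459; since the genes were chosen by these ratios, that count is a description and no sign of stability. That setting called 18617 of all tested probes and 71 genes of the 7 lists (48 lower, 23 higher). Leaving out one array each gave 2409 to 9885 probes and 19 to 49 such genes (14 to 34 lower, 5 to 15 higher), lowest without replicate 1. With replicates 1 and 2 averaged as 1 array, 5120 probes and 28 such genes passed (8 higher). Averaging the probes of a gene left 8 higher, and the authors' rule of a B statistic above 0 left 2661 probes. No result reversed. No paired analysis was possible because the 3 arrays form 1 group, with no other group to share replicate numbers; the ratio within an array already pairs a mutant with a wild type pool. Dim signal limits Htr1b, Htr4 and Htr7, which stay unread.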

Other observations

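Receptors for the other monoamines were a list added after the values of the serotonin receptors had been seen. They had 3 genes lower and 1 higher of 15 tested (median -0.02), and the same counts without replicate 3. By the same rule 23.6% of all tested genes fell and 17.1% rose. Hrh3, a histamine receptor of nerve endings, rose with ratios of 0.30, 0.22 and 0.29 (mean 0.27 ± 0.05, adjusted p = 0.00742 by limma). The dopamine receptor gene Drd4 fell (-0.23 ± 0.07, adjusted p = 0.014 by limma). Drd5 fell by 1 probe (-0.23 ± 0.02, adjusted p = 0.00927 by limma) and had 0.10 without passing by the other. Adrb3, an adrenergic receptor, fell slightly (-0.13 ± 0.01, adjusted p = 0.0405 by limma). Htr2a and Htr3a were chosen with their ratios known, so their distance from these 4 genes is not read. None of these 4 genes passed without replicate 1, where the range of adjusted p over all such lost calls was 0.0519 to 0.245 by limma.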
